A study of Xenopus tropicalis with 9 samples.

Results

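The genes described here are 100 Ensembl genes without a gene name in the files used here and whose RNA was lower in tadpole tails after the notochord had been taken out. They were chosen from the 19921 genes of the deposited count table, of which 13459 have no name in the authors' 3 tables of selected genes. Levels are CPM, the read count of a gene scaled to a common library size, normalized with edgeR's TMM factors over all 9 libraries. A gene was taken where its mean in stage 63 whole tail was at least 2 CPM and at least 1.5 times its mean in notochord-removed tail. In addition, all 3 whole-tail libraries had to lie above all 3 notochord-removed libraries. Of 8505 genes without a name that could be tested, these limits took 1.18%. Over all 14125 genes tested, named or not, they took 202, or 1.43%. The difference between whole and notochord-removed tail therefore chose the genes, and it is given below as a description with no test.

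RNA came from Xenopus tropicalis tadpoles, a frog that resorbs its tail at metamorphosis. There were 3 libraries each of whole tail at stage 60, labelled as before metamorphosis, whole tail at stage 63, labelled as during it, and notochord-removed tail at stage 63. The series title calls the animals wild type, and the labels give no genotype, treatment or age besides the stage. Whether replicate libraries stem from different animals is not said either, so the tests below measure only the spread between these libraries.

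The notochord is the rod of large vacuolated cells, wrapped in a collagenous sheath, that runs along the axis of a tadpole tail. It stiffens the tail and is a source of hedgehog signal during development. At metamorphosis thyroid hormone sets off resorption of the whole tail, in which muscle, skin, spinal cord and notochord are all broken down. None of the 100 genes is paired with a symbol in the files, and no role is given here for any of them. The authors' table of genes raised in both comparisons pairs 3 of them with a human Ensembl identifier, and these are given with their values below. Positions are those of the count table, on scaffolds of a genome build not given in the sources used here.

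Library totals ran from 26928846 to 34836531 counts. The genes described were well covered in stage 63 whole tail, where the smallest count of any of them in a library was 66 and the median 256. The limit of 2 CPM in part sets this. Notochord-removed tail held fewer counts for some genes, with 0, 3 and 3 for ENSXETG00000032045 and 12, 15 and 9 for ENSXETG00000032263. Notochord-removed replicate 3 stood somewhat apart from the other 2 libraries of its group, with chi-square over degrees of freedom of 22.9 and 19.9. Stage 63 whole tails 1 and 3 differed about as much, at 21.9. Without notochord-removed replicate 3 no gene's ratio of whole to notochord-removed tail moved by more than 1.5 times, and 13 of the 100 fell below 1.5. As a check of the labels, the brachyury gene tbxt, which marks notochord, was at 4.08 CPM with the notochord and 10.2 times less without it. Of 20 notochord symbols 9 were named in the files, and their summed level ran from 142 to 147 CPM with the notochord and from 50.4 to 67.0 CPM without it, both at stage 63. At stage 60 it ran from 3664 to 3695 CPM. Most of the stage 63 sum was krt8, at 108 CPM with the notochord and 52.1 CPM without it, a ratio of 2.07. The ratios of the other measured genes on the list ran from 2.30 (cnmd) to 51.2 (chad). The chad ratio is imprecise, since chad was at 0.894 CPM with the notochord and only 0.0175 CPM without it. Names come only from the authors' tables of selected genes. Genes on the list that fell between stages stand there for a ratio of whole to notochord-removed tail above 2, so their direction was set by the naming.

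Markers of other tissues were compared between whole and notochord-removed tail at stage 63, in that order below. The groups overlapped for the neuron list and lay apart for muscle, cartilage, epidermis, leukocyte and endothelium lists. Only symbols named in the authors' tables were measured, which needed a ratio above 2 in one of their comparisons. The genes myl3, chad, cnmd and col9a1 fell between stages, so a high ratio of whole to notochord-removed tail was a condition of their naming. The muscle and cartilage sums are therefore in part set by that selection. The single measured sarcomere gene of 34, myl3, was at 2.71 to 3.44 CPM with the notochord and 0.871 to 2.34 CPM without it. The 7 leukocyte markers, all measured, summed to 1153 to 1165 CPM and 1087 to 1118 CPM, and the 7 epidermis markers measured of 11 to 2998 to 3173 CPM and 2779 to 2985 CPM. Within the leukocyte list the genes differed: mpo, the myeloperoxidase of granulocytes, was 1.83 times higher with the notochord, at 170 against 93.0 CPM, which is above the median ratio of the 100 genes. The genes itgb2 and spi1 were 1.33 and 1.26 times higher, while csf1r and lcp1, which hold most of the sum, were at ratios of 0.989 and 0.875. Within the epidermis list krt5.2 was 1.43 times higher, at 620 against 432 CPM, and krt17 and dsc3 were at ratios of 1.06 and 1.02. The genes tp63, pkp1, dsp and otog were at 0.986, 0.951, 0.884 and 0.286. The 7 endothelium markers, all measured, had a lower sum in whole tail, at 164 to 168 CPM against 202 to 214 CPM. Among them pecam1 was at a ratio of 1.05 and esam at 0.997, and the others ran from 0.651 (tek) to 0.819 (egfl7). Cartilage matrix genes, 8 of 21 measured, summed to 151 to 170 CPM and 112 to 139 CPM, and neuron and spinal cord genes, 4 of 14 measured, to 8.17 to 8.84 CPM and 6.96 to 9.32 CPM. Most of the cartilage sum was epyc, at 134 against 107 CPM, and chad and cnmd are also on the notochord list. The genes col9a1 and sox5 were at ratios of 7.29 and 1.16, and sox9, matn4 and hapln1 at 0.988, 0.959 and 0.912. None of the 9 symbols on the erythrocyte list was among the names in the files, which hold 2 genes named in the manner of alpha globins, hba-l3 and hba-l4, described below. The part of these tissues in the differences below was not tested. In whole-tissue RNA, fewer cells of a type and less RNA per cell cannot be told apart.

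Most of the differences that chose these genes were modest, and a few were very large. The ratio of whole to notochord-removed tail had a median of 1.71. It was under 2 for 69 genes, at least 2 for 31 and at least 4 for 7. The highest ratio was 45.8. Just inside the limit of 1.5 times were ENSXETG00000018811, at a ratio of 1.504, and ENSXETG00000021239, at 1.505. Just outside it were ENSXETG00000019929, at 1.499, and ENSXETG00000013957, at 1.492. At the limit of 2 CPM the nearest genes inside were ENSXETG00000014191, at 2.04 CPM, and ENSXETG00000008788, at 2.12 CPM, and outside ENSXETG00000015998, at 1.99 CPM, and ENSXETG00000034345, at 1.95 CPM.

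All 100 genes passed the filter on low counts in the fit over all genes. Between stage 60 and stage 63 whole tail, the quasi-likelihood test of edgeR, with p-values adjusted over all genes after Benjamini and Hochberg, called 47 higher at stage 63, 45 lower and 8 neither. The same test called 43% of all tested genes higher and 40.8% lower. Among the tested genes without a name, from which the 100 were drawn, it called 10.1% higher and 67.3% lower. The median log2 stage change was 0.063 for the 100 genes, 0.051 for all genes tested and -0.64 for the tested genes without a name. All 3 stage 63 whole tails lay above all 3 stage 60 libraries for 48 genes and below them for 45, against 44% and 41.5% of all genes tested. Changes were often large: 34 genes were called and at least 2-fold higher, 17 of them at least 8-fold, and 30 were called and at least 2-fold lower, 13 of them at least 8-fold. Over all genes tested, 23.9% were called at least 2-fold higher and 21.6% at least 2-fold lower, and 2.84% and 2.43% at least 8-fold.

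These counts are in part set by the choice. Stage 63 whole tail enters both the limits and the stage comparison. A name is known only for genes the authors listed, which needed a ratio above 2 in one of their comparisons. Of the 100 genes 58 stand in those tables under their identifier, 47 of them among genes raised at stage 63, and these 47 are the 47 called higher. The other 42 stand in no table, so whether they have a name elsewhere is not known here; 37 were called lower and 5 neither. By comparison, of 102 named genes that met the same limits 82 were called higher and 17 lower, and those names come from the same selection. Stage changes also depend on scaling. With library size alone the median of all genes moved up by 0.82 on the log2 scale, and 60 of the 100 genes were called higher and 27 lower.

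**Figure D1:**
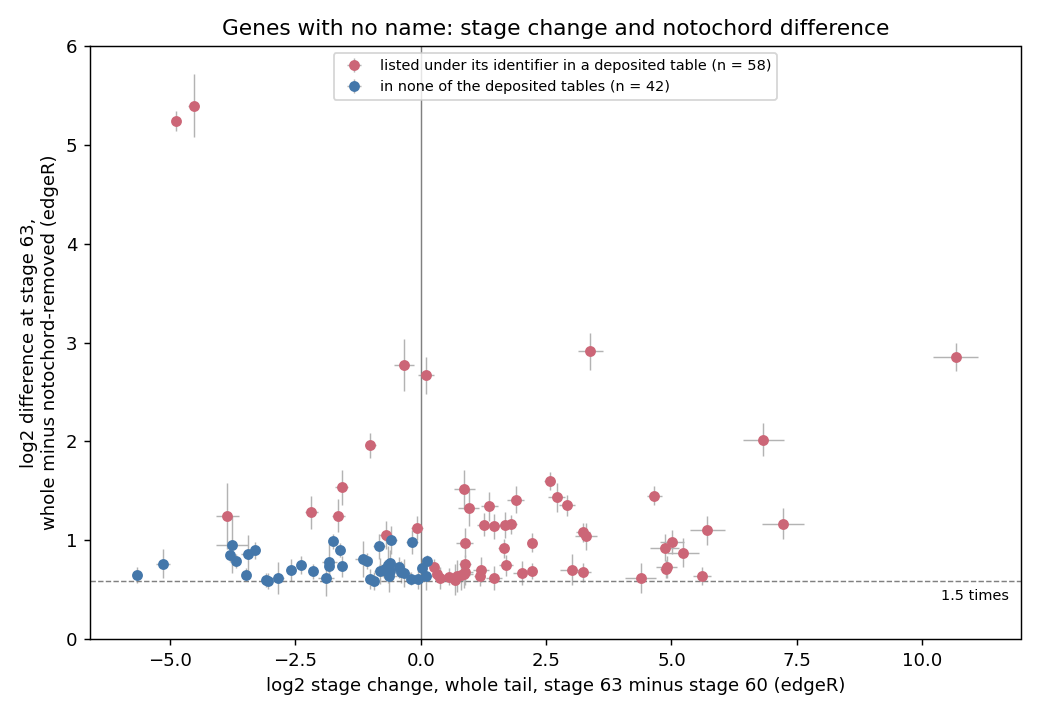
Log2 stage change in whole tail (x axis) against the log2 difference of whole minus notochord-removed tail at stage 63 (y axis) for the 100 genes, with SE bars from edgeR. Points are coloured by whether the gene is listed in a deposited table (58) or not (42), the dashed line is the limit of 1.5 times, both axes use the same stage 63 whole-tail libraries, and the point farthest right had no stage 60 count, so its x value is a fitted one.

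Together the TMM-normalized levels of the 100 genes summed to 24929 to 25520 CPM in stage 60 libraries. The sums were 5640.5 to 5999.5 CPM in stage 63 whole tail and 3023 to 3349 CPM in notochord-removed tail. These ranges do not overlap, which for the stage 63 groups follows from the limits set on each gene. A few abundant genes carried most of the summed level, with the 6 highest holding 78.7% of the stage 60 sum. Because of the scaling these sums are not shares of the counts. In replicate 1 the genes held 468027 of 27832500 counts at stage 60 and 235077 of 33284353 in stage 63 whole tail.

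The largest fall was in ENSXETG00000013076 (scaffold GL173310.1, 51813 to 58194, minus strand, 6 exon blocks). Its 3 stage 60 libraries were at 4827, 4867 and 4861 CPM and the stage 63 whole tails at 93.5, 95.5 and 99.7 CPM. Notochord-removed tails were at 66.9, 64.7 and 53.0 CPM, so that no group overlapped another. The log2 stage change was -5.66 ± 0.10 (SE; edgeR adjusted p = 1.21e-19), a level 50.4 times lower, while the ratio of whole to notochord-removed tail was only 1.56. ENSXETG00000003393 (scaffold GL173017.1, 821103 to 871353) changed alike, from 370.4 ± 4.95 CPM (SD, n = 3) to 10.5 ± 2.54 CPM, with 6.16 ± 0.883 CPM after notochord removal. ENSXETG00000034136 (scaffold GL172782.1, 814550 to 844623) went from 1896 ± 28.8 to 136 ± 1.61 CPM, and ENSXETG00000014570 (scaffold GL173075.1, 82153 to 103758) from 2144 ± 39.7 to 254 ± 4.77 CPM. For each of these the remaining stage 63 RNA was 1.52 to 1.81 times as high with the notochord as without it, and the stage groups lay far apart.

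A pair of genes combined a steep fall with near absence from the notochord-removed tail. ENSXETG00000030183 (scaffold GL173464.1, 326290 to 349211, plus strand) is annotated with 44 exon blocks over a summed length of 2009 bases. It was at 1528, 1446 and 1615 CPM at stage 60, at 54.4, 51.6 and 49.8 CPM in stage 63 whole tail and at 1.47, 1.21 and 1.41 CPM without the notochord. Stage 63 whole tail was thus 29.5 times below stage 60 (log2 stage change -4.88 ± 0.08; edgeR adjusted p = 6.93e-20) and 38.1 times above notochord-removed tail. ENSXETG00000032045 (scaffold GL172750.1, 404267 to 422367, plus strand, 26 exon blocks) had the highest ratio of all. It was at 53.2, 54.6 and 59.4 CPM at stage 60, at 2.60, 2.01 and 2.58 CPM in stage 63 whole tail and at 0, 0.0843 and 0.0730 CPM without the notochord. The notochord-removed level rested on 6 counts against 282 in whole tail, a ratio of 45.2 over pooled counts with a 95% counting interval from 20.5 to 124. Its stage change was -4.53 ± 0.11 (edgeR adjusted p = 5.92e-18).

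The 9 measured genes of the notochord list all had a lower mean without the notochord, but their stage means did not all move one way. Only genes in the authors' tables are named, which needed a ratio above 2 in one comparison. For genes that fell between stages this was the ratio of whole to notochord-removed tail, so its direction was set by the naming. The vimentin-type filament gene vim.2 went from 840.2 CPM at stage 60 to 9.86 CPM in stage 63 whole tail, 18.7 times its notochord-removed level. The genes krt8, des.2, krt18l, chad, cnmd and t2 fell as well. For example, krt8 went from 1276 to 108 CPM, des.2 from 1200 to 4.38 CPM and t2 from 25.7 to 9.31 CPM. By contrast, foxa2, a transcription factor gene of notochord and floor plate, was little changed, at 1.02 and 0.956 CPM. Only tbxt had a higher mean at stage 63, at 2.46 and 4.08 CPM.

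ENSXETG00000025394 (scaffold GL173673.1, 171994 to 189462, plus strand, 11 exon blocks) had a large ratio of whole to notochord-removed tail and a smaller stage change. Its stage 60 libraries were at 104, 99.99 and 102 CPM, stage 63 whole tails at 57.8, 49.6 and 45.4 CPM and notochord-removed tails at 14.9, 14.5 and 9.91 CPM. It fell 2.01 times between stages (log2 -1.01 ± 0.12; edgeR adjusted p = 1.09e-06), a call lost when library size alone was used for scaling, and stood 3.89 times higher with the notochord than without it.

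ENSXETG00000019908 (scaffold GL173426.1, 133088 to 146345, minus strand) fell from 50.5 ± 2.73 to 3.46 ± 1.02 CPM, and its stage 63 values varied more than those of most other genes. Whole tails were at 2.35, 3.67 and 4.35 CPM and notochord-removed tails at 1.05, 0.899 and 2.31 CPM. The highest notochord-removed value, in replicate 3, lay just under the lowest whole-tail value, and the ratio was 2.43 with that library and 3.55 without it.

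At the other end, ENSXETG00000010800 (scaffold GL173552.1, 103076 to 106580, plus strand, 5 exon blocks) had no count in any stage 60 library. Stage 63 whole tails were at 6.15, 6.26 and 6.84 CPM, and notochord-removed tails at 1.02, 0.815 and 0.827 CPM. Against a floor of 3 counts over the 3 stage 60 libraries, or 0.0533 CPM, stage 63 whole tail was at least 121-fold higher (edgeR adjusted p = 2.43e-13). It stood 7.23 times above notochord-removed tail. The authors' deposited table pairs this gene with human ENSG00000128311 and lists it at a mean FPKM of 0 at stage 60, 8.68 in whole and 1.23 in notochord-removed tail.

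Near absence at stage 60 was also seen for ENSXETG00000005367 (scaffold GL173068.1, 631780 to 648093, minus strand) and ENSXETG00000025971 (scaffold GL173157.1, 189186 to 193946, plus strand). Each had 2 counts over the 3 stage 60 libraries. ENSXETG00000005367 was at 5.64, 5.83 and 6.22 CPM in stage 63 whole tail and at 3.25, 2.92 and 1.78 CPM without the notochord. Its stage ratio over pooled counts was 166, with a 95% counting interval from 45.9 to 1376. ENSXETG00000025971 was at 5.33, 4.25 and 3.95 CPM with the notochord and 1.13, 1.32 and 0.901 CPM without it. Its stage ratio was 127 (interval 34.9 to 1049), and its ratio of whole to notochord-removed tail 4.04. The intervals cover counting error only.

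ENSXETG00000021946 (scaffold GL173022.1, 31296 to 52462, plus strand, 9 exon blocks) rose in whole tail to a level that notochord-removed tail did not share. It was at 0.373, 0.257 and 0.276 CPM at stage 60 and at 3.06, 3.27 and 3.22 CPM in stage 63 whole tail (log2 3.38 ± 0.25; edgeR adjusted p = 1.36e-10). Notochord-removed tails were at 0.396, 0.309 and 0.535 CPM, overlapping the stage 60 libraries. The notochord-removed level minus that of stage 60 was 0.47 ± 0.36 on the log2 scale and did not pass (edgeR adjusted p = 0.260). This gene was chosen and named for its low notochord-removed level beside whole tail. The result is therefore not independent of the choice, and no conclusion is drawn from it.

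A pair of abundant risers stood above stage 60 in notochord-removed tail as well. ENSXETG00000034075 (scaffold GL173015.1, 922283 to 959987, minus strand, 39 exon blocks) had the highest level per length of the genes with the 12 largest rises. It was at 22.8, 22.4 and 22.5 CPM at stage 60, at 598, 669.8 and 732 CPM in stage 63 whole tail and at 369, 374 and 479 CPM without the notochord. Its log2 stage change was 4.88 ± 0.11 (edgeR adjusted p = 4.30e-18). The short ENSXETG00000027940 (scaffold GL173482.1, 267913 to 268433, minus strand, 342 bases in 2 exon blocks) went from 1.75 ± 0.368 to 44.6 ± 2.89 CPM, with 16.3 ± 2.55 CPM in notochord-removed tail. Its log2 stage change was 4.66 ± 0.14 (edgeR adjusted p = 2.53e-16).

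The remaining steep risers were low at stage 60 and 1.52 to 2.14 times higher with the notochord at stage 63. ENSXETG00000032217 reached 24.5 ± 1.66 CPM from 0.501 ± 0.189 CPM, and ENSXETG00000027430 reached 15.6 ± 1.35 CPM from 0.522 ± 0.315 CPM. For ENSXETG00000027430 the log2 stage change of 4.91 became 5.503 without stage 60 replicate 3, its highest stage 60 library. ENSXETG00000015923 reached 7.54 ± 0.390 CPM and ENSXETG00000033174 5.51 ± 0.216 CPM, from 0.229 ± 0.0730 and 0.142 ± 0.0791 CPM. ENSXETG00000020142 reached 4.89 ± 0.424 CPM from 5 counts over the stage 60 libraries, a ratio over pooled counts of 54.8 with a 95% counting interval from 23.4 to 170. Its log2 stage change was 5.72. It was 7.33 without stage 60 replicate 1, which held most of those counts, and 5.13 without stage 60 replicate 2, which held none. ENSXETG00000032730 reached 3.42 ± 0.510 CPM from 9 counts (ratio 21.5, interval 11.2 to 47.4).

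**Figure D2:**
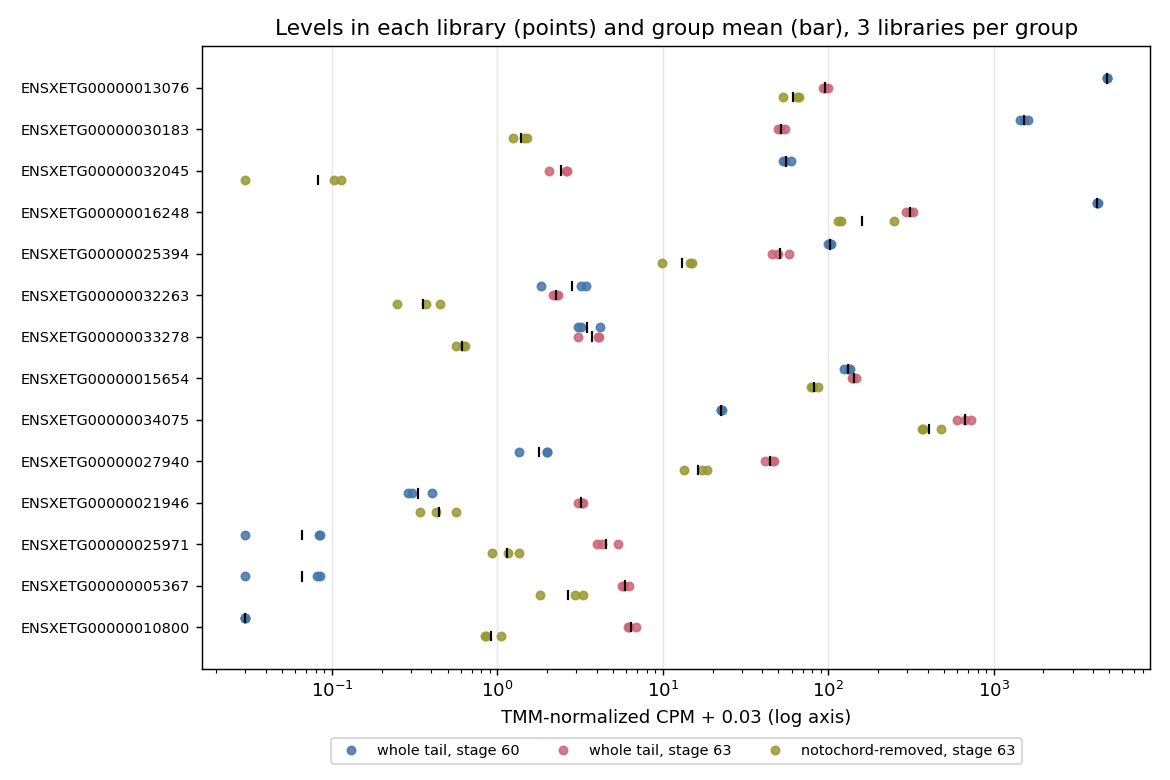
Level of 14 of the genes in each of the 9 libraries, as CPM plus 0.03 on a log axis, with points for libraries and a bar for the group mean; values of 0 sit at 0.03. From top to bottom the genes run from falling to rising. The order follows the stage change, except that ENSXETG00000034075, ENSXETG00000027940 and ENSXETG00000021946 stand in reverse order of their rise. In each the 3 notochord-removed libraries lie below the 3 stage 63 whole tails, as the limits required.

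The other genes with a human identifier rose moderately. ENSXETG00000008794 (scaffold GL172740.1, 831269 to 840742, human ENSG00000127954) was at 5.54, 4.69 and 3.87 CPM at stage 60, at 17.6, 15.8 and 15.9 CPM in stage 63 whole tail and at 8.04, 7.05 and 7.03 CPM without the notochord. ENSXETG00000008929 (scaffold GL172787.1, 1970633 to 1975839, human ENSG00000143387) was at 2.72, 1.96 and 1.99 CPM, then 5.36, 5.57 and 5.12 CPM, and 2.35, 2.39 and 2.43 CPM without the notochord. In ENSXETG00000008794 all notochord-removed libraries lay above stage 60, and in ENSXETG00000008929 they overlapped it. These 2 were named because of their human identifiers.

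Of the 8 genes whose stage change did not pass, a pair on scaffold GL173447.1 had among the largest differences with the notochord. They are the shortest described, ENSXETG00000033278 (27292 to 27506, minus strand, 183 bases) and ENSXETG00000032263 (238355 to 242809, plus strand, 231 bases), each in 2 exon blocks. ENSXETG00000033278 was at 3.20, 4.12 and 3.04 CPM at stage 60, 4.03, 4.10 and 3.05 CPM in stage 63 whole tail and 0.594, 0.534 and 0.608 CPM without the notochord. ENSXETG00000032263 was at 1.81, 3.19 and 3.42 CPM, 2.30, 2.24 and 2.14 CPM, and 0.340, 0.421 and 0.219 CPM. The stages overlapped in both genes, at log2 stage changes of 0.10 ± 0.15 and -0.34 ± 0.19 (edgeR adjusted p = 0.546 and 0.115). The ratios of whole to notochord-removed tail were 6.44 and 6.81.

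Only 1 gene lies between them in the count table, the named pgq, which encodes the precursor of a frog antimicrobial peptide. It was at 32.6 ± 0.864 CPM at stage 60, 19.2 ± 1.70 CPM in stage 63 whole tail and 3.998 ± 0.769 CPM without the notochord, a ratio of 4.79. All 3 genes of this stretch were thus several times higher with the notochord, as measured in the same libraries. The 2 genes without a name were chosen for that difference. The gene pgq, lower at stage 63 than at stage 60, is named only because the authors listed it for a ratio of whole to notochord-removed tail above 2. Their common direction is therefore set by selection.

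The most abundant gene of the 8 was ENSXETG00000015654 (scaffold GL174118.1, 12615 to 32618, minus strand). It was at 134, 125 and 135 CPM at stage 60 and at 141, 139.6 and 147 CPM in stage 63 whole tail, with 78.6, 80.9 and 87.2 CPM without the notochord. Its log2 stage change was 0.12 ± 0.06 (edgeR adjusted p = 0.0891), and it passed in 4 of the alternatives tried.

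Genes of the set lay next to each other more than once. On 9 scaffolds at least 2 of them stood within 100 kb of each other, which held for 24 of the 100. Among the 102 named genes that met the same limits this held for 16. No such share was computed over all genes tested, so whether the 100 genes lie closer together than others was not tested. No gene of the 100 overlaps an exon of another annotated gene. Neighbouring genes that are near-identical copies can share reads, and their values are uncertain to that extent.

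The largest such group was on scaffold GL172646.1, where 5 genes stood within 112 kb. All 5 rose between stages and were 2.11 to 3.02 times higher with the notochord than without it. They are alike in build, with 5 or 6 exon blocks and 756 to 1380 bases. ENSXETG00000004487 (5071172 to 5074649, plus strand) was the highest, at 11.03, 9.73 and 12.1 CPM at stage 60, 82.6, 69.8 and 63.0 CPM in stage 63 whole tail and 29.5, 30.3 and 20.2 CPM without the notochord. ENSXETG00000031140 (5167799 to 5170545, minus strand) went from 5.04 ± 0.423 to 30.0 ± 2.46 CPM, with 9.95 ± 1.29 CPM without the notochord, the highest ratio of the group. ENSXETG00000031046 (5133554 to 5135755, plus strand) had the largest stage change, 3.24 ± 0.14 on the log2 scale (edgeR adjusted p = 2.51e-14), from 2.45 ± 0.155 to 23.2 ± 1.81 CPM. ENSXETG00000004496 (5180804 to 5183110, minus strand) reached 14.9 ± 1.07 CPM and ENSXETG00000032142 (5143995 to 5146930, plus strand) 9.91 ± 0.777 CPM.

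A further 3 genes lie within that span. XB-GENE-5791624, a name that only repeats a database number, has 744 bases in 6 exon blocks and was 2.91 times higher with the notochord than without it. The named acod1, whose enzyme makes itaconate in activated macrophages of mammals, was 2.94 times higher, at 6.18 ± 0.720 against 2.10 ± 0.478 CPM. The third, ENSXETG00000004489, was 1.31 times higher. On either side, zbtb33 and ENSXETG00000030147 were 1.10 and 1.13 times higher. The span was drawn from the first to the last gene that met the limits. ENSXETG00000030147 has no name, so had it met them it would have been counted within the span. Its low ratio is therefore in part set by the choice, and where the differences end along the scaffold was not tested.

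On scaffold GL173157.1, 4 of the genes stood on the plus strand within 282 kb, among 7 other genes. Besides ENSXETG00000025971, described above, they were ENSXETG00000006287 (282969 to 302354), ENSXETG00000033855 (361431 to 369039) and ENSXETG00000031419 (468887 to 470857). ENSXETG00000006287 was the highest, at 22.5 ± 1.13 CPM at stage 60, 105 ± 10.9 CPM in stage 63 whole tail and 53.4 ± 8.04 CPM without the notochord. Next to it lies the named tpsg1, a serine protease gene of the mast cell tryptase type in mammals, at 4.17 ± 0.173 and 1.40 ± 0.263 CPM in the stage 63 groups. Neighbours did not all behave alike: ENSXETG00000006282, which lies beside ENSXETG00000025971, was at 7.55 CPM with the notochord and 8.98 CPM without it.

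Scaffold GL172891.1 held 3 long genes in a row on the plus strand, of 39 to 49 exon blocks and 5736 to 6417 bases. All 3 fell steeply. ENSXETG00000016248 (311590 to 336012) was among the most abundant genes at stage 60, at 4200.3, 4252 and 4189 CPM. It was at 296, 311 and 325 CPM in stage 63 whole tail and at 114, 119 and 248 CPM without the notochord. Notochord-removed replicate 3 thus stood far above the other 2 libraries, and the ratio of 1.94 became 2.67 without it. The log2 stage change was -3.76 ± 0.32 (edgeR adjusted p = 1.17e-05). ENSXETG00000025242 (343369 to 379897) went from 398 ± 8.36 to 35.4 ± 2.00 CPM and ENSXETG00000016267 (429396 to 442251) from 255 ± 8.33 to 25.9 ± 2.34 CPM. Notochord-removed tails were at 22.5 ± 0.989 and 13.9 ± 1.73 CPM. Another long gene just upstream, ENSXETG00000032275, fell as well, from 27.04 to 3.06 CPM, and had a ratio of 1.23. Its stage 63 whole tails were at 3.16, 2.67 and 3.36 CPM. Its notochord-removed tails were at 1.53, 2.28 and 3.65 CPM, and only replicate 3 lay above the whole tails, so the low ratio depends on that library.

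The highest levels per length of all 100 genes were those of a pair on scaffold GL172993.1, in every group. ENSXETG00000025664 (939457 to 940502) and ENSXETG00000025667 (931135 to 932667) lie on the minus strand, with 3 exon blocks and 584 and 581 bases. ENSXETG00000025664 was at 3473, 3709 and 3507 CPM at stage 60, at 1265, 1132 and 1083 CPM in stage 63 whole tail and at 639.9, 576 and 647 CPM without the notochord. ENSXETG00000025667 was at 3092, 3315 and 3122 CPM, at 1032, 924 and 860.2 CPM, and at 487, 432 and 499.7 CPM. Their log2 stage changes were -1.62 ± 0.08 and -1.76 ± 0.08 (edgeR adjusted p = 1.47e-13 and 8.96e-14). Stage 63 whole tail held 1987 and 1616 CPM per kilobase.

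Farther along the same strand stand, among others, ENSXETG00000025663 and ENSXETG00000001141, also of 3 exon blocks and without a name, and hba-l4 and hba-l3, which the authors' tables name in the manner of alpha globin genes. ENSXETG00000025663 was at 2922 CPM at stage 60, 1561 CPM in stage 63 whole tail and 1860 CPM without the notochord, and ENSXETG00000001141 at 1554, 152 and 180.3 CPM. Both were thus abundant in the tail but 0.839 and 0.846 times as high with the notochord, the opposite order to the pair beside them. The genes hba-l4 and hba-l3 were at or below 0.251 CPM in every group mean.

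**Figure D3:**
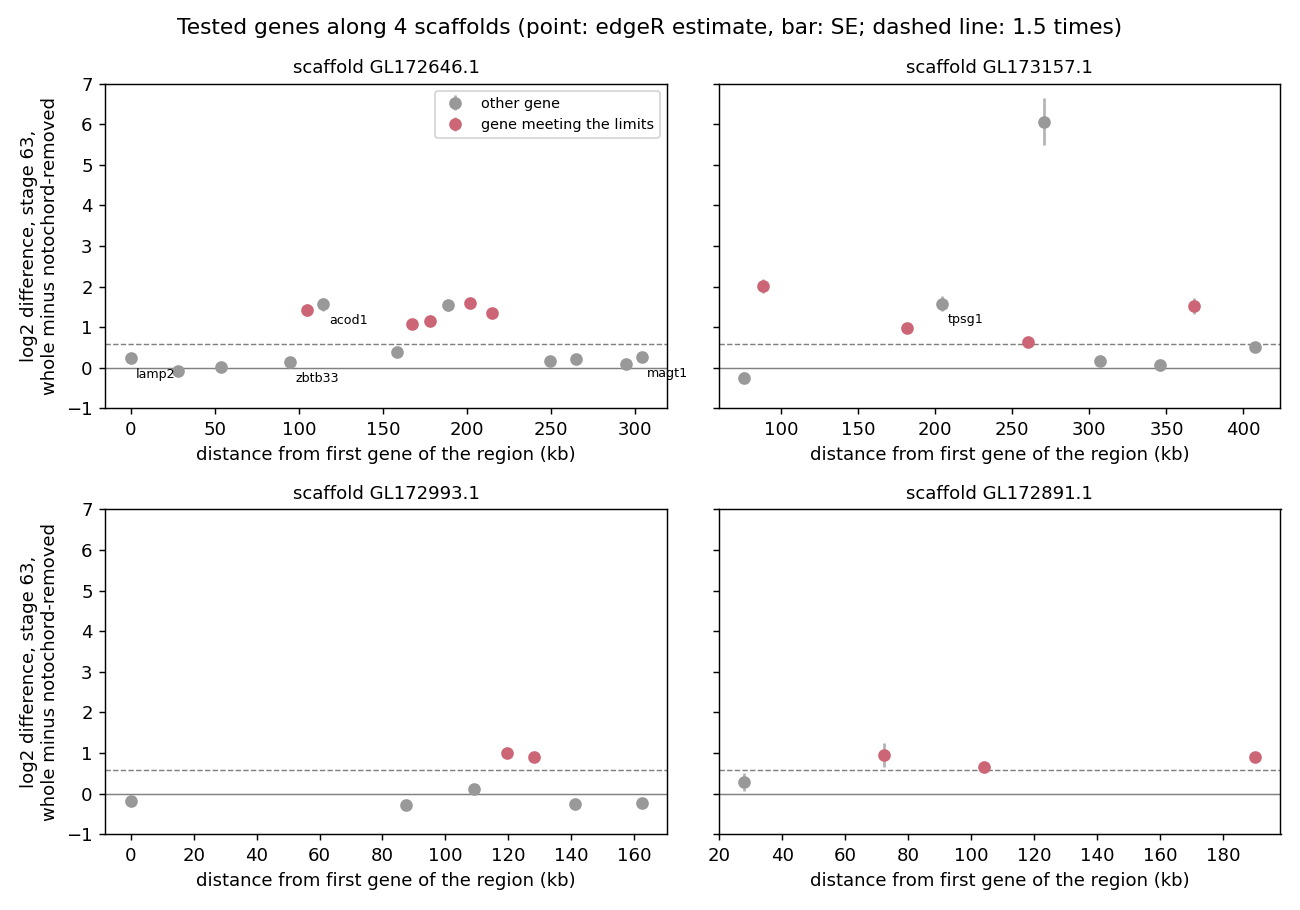
Log2 difference of whole minus notochord-removed tail at stage 63 (y axis, edgeR estimate with SE bar) for the tested genes along 4 scaffolds, against distance from the first gene of the region in kb (x axis). Genes that met the limits, in red, lie above the dashed line of 1.5 times by choice; on GL172646.1 they stand between 1.08 and 1.60 on the log2 scale, and on GL172993.1 the genes beside the red pair lie near or below 0.

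Smaller groups showed mixed stage changes. On scaffold GL172951.1, ENSXETG00000030596 (27817 to 33943, minus strand) was at 520.2, 499 and 512 CPM at stage 60, at 685, 600.3 and 556 CPM in stage 63 whole tail and at 378, 374 and 356 CPM without the notochord. On the same strand, ENSXETG00000012677 (7401 to 8126, 1 exon block) rose from 5.26 ± 0.455 to 24.5 ± 2.33 CPM. Between them lies ENSXETG00000012676, which went from 4.09 to 209 CPM and was 1.24 times higher with the notochord. On scaffold GL173446.1, ENSXETG00000032217 (104188 to 117469) and ENSXETG00000009400 (152075 to 180761) both rose from under 1 CPM, the latter to 3.73 ± 0.256 CPM from 7 counts at stage 60. Of the genes on either side of them, RIMKLB was 1.03 times and ovos2 0.470 times as high with the notochord as without it.

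On scaffold GL173531.1, ENSXETG00000026029 (866 to 5081) and ENSXETG00000034043 (93353 to 100178) flank mhc1a, a class I histocompatibility gene. The log2 stage change of ENSXETG00000026029 was 0.77 with library size alone for scaling. With TMM factors this gene was steady between stages, at 5.23 ± 0.246 and 5.03 ± 0.0972 CPM, and ENSXETG00000034043 rose from 1.48 ± 0.268 to 5.47 ± 0.652 CPM. The ratios of whole to notochord-removed tail were 1.53 and 2.65, beside 1.52 for mhc1a and 1.61 for the class II gene mhc2a. On scaffold GL173394.1, ENSXETG00000030282 and ENSXETG00000034196 were near 4 CPM in stage 63 whole tail, with ratios of 1.56 and 1.57. On scaffold GL172717.1, ENSXETG00000003060 fell from 333 ± 8.81 to 200.1 ± 24.1 CPM (log2 -0.73; edgeR adjusted p = 3.84e-08). With library size alone for scaling the log2 stage change turned to 0.090, with no call (edgeR adjusted p = 0.323). On the same scaffold, ENSXETG00000033290 was at 7.43 CPM and 6.58 CPM, a change that did not pass (edgeR adjusted p = 0.174).

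Set against stage 60, notochord-removed tails gave 30 of the 100 genes as higher, 56 as lower and 14 as neither (edgeR adjusted p under 0.05; over all genes tested 43.3% were higher and 39.7% lower, and over tested genes without a name 13% and 65.2%). The median log2 difference was -0.68, beside 0.068 over all genes tested and -0.59 over tested genes without a name. All 3 notochord-removed libraries lay below all 3 stage 60 libraries for 56 genes and above them for 29, against 39.8% and 43.6% of all genes tested. A low level in notochord-removed tail was a condition of the choice, so the direction of these values is not independent of it.

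The limits used no feature of the gene models, and by these the genes were somewhat shorter and had fewer exon blocks. Their median annotated exon length was 1453.5 bases, against 1770 bases over all genes tested and 1599 bases over tested genes without a name. The median number of exon blocks was 7, against 9 and 8. Genes with a single exon block made up 9% of the set and 4.13% of all genes tested. The length was a multiple of 3, as in a gene model that holds coding sequence alone, for 71% of the set and 61.9% of all genes tested. Lengths ran from 183 to 6508 bases. The shares of single-block genes and of lengths that are a multiple of 3 were not computed for tested genes without a name. All of these values are descriptions with no test.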

How the data were processed

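Total tail RNA was sequenced from Illumina TruSeq libraries, as the labels' protocols state. The submitters' processing notes name STAR 2.5.4a and featureCounts 1.5.2, and the deposited values are raw read counts for each Ensembl gene. Genome build and strand setting are not given in the sources used here. The authors' 3 deposited tables give, for genes whose ratio between groups is above 2, that ratio and the group mean FPKM, and were used for names, listing and the FPKM values quoted.

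One edgeR 4.0.16 model (R 4.3.3; TMM, glmQLFit, glmQLFTest) with a mean for each group was fitted to all 9 libraries, and Benjamini-Hochberg adjusted p under 0.05 was called. The filterByExpr filter kept 14125 genes. TMM factors were 0.672 to 0.690 at stage 60 and 1.18 to 1.25 at stage 63. The SE is approximate, from the log2 change and the F statistic. Exon blocks are merged annotated exons. No replicate pair agreed within sampling noise (chi-square over genes). Counting intervals are exact binomial ones.

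The members, gene lists and tests were chosen with earlier results of these data known. Named were the 12 largest and 12 smallest stage changes, the 8 highest levels, the 8 largest ratios, genes at the limits and members within 100 kb of each other; the genes with a human identifier and neighbouring genes were added after values were seen. Alternatives were other scalings, filters, limits, DESeq2 1.42.0, limma-voom (limma 3.58.1), a replicate block and leaving out each library. The fit was tested on simulated counts.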

Additional observations from a re-analysis of the deposited data

How the results depend on the processing

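The number of genes that met the rule was 100. It became 31 with a limit of 2 times, 355 with a looser limit on the ratio, 66 with a limit of 5 CPM, 58 where only genes listed under their identifier were taken and 42 where only genes in none of the tables were. With single libraries left out it ran from 102 to 117, of which 86 (without notochord-removed replicate 3) to 100 were among the original genes. With library size alone for scaling it was 96, of which 88 were shared.

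With library size alone, 27 of the genes were called lower at stage 63 in place of 45, and their median log2 stage change became 0.88 in place of 0.063. The shift of all genes by 0.82 gives this. Under the same scaling the direction reversed for ENSXETG00000003060 (0.090), ENSXETG00000032263 (0.48), ENSXETG00000033290 (0.65) and ENSXETG00000026029 (0.77). Over 50 named genes and 16 alternatives, 787 of 800 stage values kept their direction and side of the threshold. Same-number correlations of deviations between groups ran from -0.074 to 0.43, and different-number ones from -0.47 to 0.31. The highest, 0.37 and 0.43, were between stage 63 whole and notochord-removed replicates 1 and 3, so pairing of these groups is not settled. With a replicate block 47 genes were higher between stages and 45 lower, as without it. With single libraries left out, 47 to 48 were higher, 44 to 45 lower, and the median ran from 0.028 to 0.085. Genes with under 10 counts at stage 60 have stage changes of poor precision.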

Other observations

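On scaffold GL173157.1, between 2 of the genes described, ENSXETG00000034055 (371537 to 378863, plus strand, 6 exon blocks) lay below the limit of 2 CPM and was picked out after its values were seen. Its stage 63 whole tails were at 1.05, 0.803 and 0.728 CPM and its stage 60 libraries at 0.0533, 0 and 0.0552 CPM. Notochord-removed tails held 1 count in all, against 100 in stage 63 whole tail, a ratio over pooled counts of 96.1 with a 95% counting interval from 16.9 to 3832.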
